A study of Homo sapiens with 20 samples.

Results

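FOXM1, MYBL2, the 4 genes of the MuvB core (LIN9, LIN37, LIN52 and LIN54) and DYRK1A are regulators of the genes a cell switches on for G2 and mitosis. The 7 genes were chosen by name out of 18417 genes measured on human gene arrays. The rule held no measured value, but the choice was made with earlier results of these data known. Each of the 7 had exactly 1 array feature with its symbol alone. The samples, on 20 arrays in 7 groups, were LNCaP cells, an established androgen-responsive line from a human prostate cancer. Early G1 (n = 3) was a 24 h treatment with 0.5 µM of the CDK4 and CDK6 inhibitor PD-0332991. Late G1 (n = 3) was 24 h with 5 µg/mL roscovitine, a drug that hits several cyclin-dependent kinases. Early S (n = 2) was 24 h with 2 µg/mL aphidicolin, which blocks DNA polymerase. Late S (n = 3) was 24 h with 1 mM hydroxyurea, which blocks ribonucleotide reductase. G2/M (n = 3) was 15 h with 2 µg/mL aphidicolin, a washout and 9 h with 50 ng/mL of the microtubule poison nocodazole. All 5 arrested groups were in hormone-proficient medium and had the androgen dihydrotestosterone (DHT) at 10 nM for their last 3 h. CDT + DHT cells had 72 h in the medium the labels call CDT and then DHT for 3 h (n = 3), and CDT cells had the same medium and then ethanol for 3 h (n = 3). An arrest therefore differed from CDT in drug, medium and DHT together, and from CDT + DHT in drug and medium. The arrests differed from one another in drug as well as stage, each stage having its own treatment. In every comparison of an arrest, late G1 against the other arrests included, stage and drug cannot be told apart. No arrested group without DHT was analysed here.

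In resting and early G1 cells the MuvB core sits with the pocket protein RBL2, E2F4 and a DP partner in the DREAM complex, which represses cell cycle genes. The kinase DYRK1A phosphorylates LIN52 and so promotes the assembly of DREAM. Once cells enter S phase the core leaves the pocket protein, joins B-MYB, the product of MYBL2, and then FOXM1, and these activators turn on the genes of G2 and mitosis. FOXM1 and MYBL2 are themselves cell cycle genes, and B-MYB is a classical E2F target.

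The promoters are shown for the letters that E2F and the MuvB core read, which not every promoter carries. Of the stretches printed, only those of LIN37 and LIN54 carry letters of both kinds. No binding was measured. RefSeq windows on GRCh38.p14, from 250 bases before to 50 bases after each listed transcription start, held 6 of the 7 genes, FOXM1 being the missing entry. Both strands were searched for GGCGGGA, a strong E2F site, for TTTGAA or its variant TTCGAA, the cell cycle homology region bound by LIN54, and for CCAAT, the NF-Y box. No 2 of these motifs are the same letters or contain each other. The motifs and windows printed were picked after the matches had been seen. Capitals mark GGCGGGA, which reads TCCCGCC when it lies on the opposite strand, and TTTGAA. The MYBL2 stretch, chr20:43666864-43667113 on the plus strand, is the whole 250 bases before its only listed start, with its E2F letters 39 bases before that start. The others are shorter stretches around the E2F letters: LIN9 at chr1:226309235-226309295 on the minus strand, LIN37 at chr19:35748625-35748685 on the plus strand, LIN52 at chr14:74084906-74084955 on the plus strand, LIN54 at chr4:83010872-83010932 on the minus strand and DYRK1A at chr21:37366683-37366743 on the plus strand.
MYBL2: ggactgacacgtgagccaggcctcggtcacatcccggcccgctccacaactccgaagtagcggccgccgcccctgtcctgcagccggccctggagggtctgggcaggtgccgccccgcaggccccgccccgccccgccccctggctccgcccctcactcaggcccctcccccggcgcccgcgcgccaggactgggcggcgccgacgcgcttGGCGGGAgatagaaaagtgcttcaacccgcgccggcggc
LIN9: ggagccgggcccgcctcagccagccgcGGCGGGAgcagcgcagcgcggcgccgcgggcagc
LIN37: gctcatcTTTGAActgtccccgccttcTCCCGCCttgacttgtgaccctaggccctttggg
LIN52: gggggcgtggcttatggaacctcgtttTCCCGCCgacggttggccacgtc
LIN54: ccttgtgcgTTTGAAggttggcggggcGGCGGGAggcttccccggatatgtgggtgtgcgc
DYRK1A: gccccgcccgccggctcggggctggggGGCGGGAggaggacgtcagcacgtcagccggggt

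GGCGGGA occurred in at least 1 window of all 6 genes, against 15.4% of all 35116 windows and 17.97% of all 27305 genes in the table. TTTGAA occurred in a window of 4 of the 6, LIN9, LIN37, LIN54 and DYRK1A, against 15.2% of windows and 18.2% of genes. The variant TTCGAA was in a window of LIN9 and DYRK1A, against 1.45% of windows and 1.82% of genes, and CCAAT in a window of LIN37, LIN52 and DYRK1A, against 34.6% of windows and 39.7% of genes. Genes with more listed starts have more chances of a match: DYRK1A had 6 starts, LIN9 had 3, LIN37 and LIN54 had 2 each, and MYBL2 and LIN52 had 1. MYBL2 held neither form of the homology region and no NF-Y box in its window, which says only that these letters are not there.

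Values are probe set intensities on the deposited linear scale, and differences are on the log2(intensity + 1) scale. Array medians ran between 5.44 and 9.08 intensity units, and no detection call was used. LIN52 was the 1 of 7 whose mean lay under that of the median gene, and levels are not compared between genes since each is read by different probes. Of 8 LNCaP markers, 5 had a feature of their own, and KLK3, the gene of prostate-specific antigen, had a log2 level of 6.52 in its lowest array and a median of 9.25. The leukocyte gene PTPRC and the stromal gene LUM were at 0.01 and 0.00 in their lowest arrays, with medians of 2.42 and 1.64. The other leukocyte and stromal markers had medians of 3.16 (CD3E), 2.11 (DCN) and 3.66 (COL1A2), with CD68 and COL1A1 above 3.66. CD68 reached 6.27 in its highest array, so leukocyte and stromal markers were not shown to be absent as a set. The basal keratins KRT5 and KRT14 had medians of 3.38 and 3.89. Late S replicate 1, early G1 replicate 2, CDT replicate 1 and CDT + DHT replicate 3 lay to 1 side, with scores of 1.28 to 2.08, on an axis that held 29.1% of the variance within groups. Late S replicate 2 lay at -1.91 on the other side. Since separate cultures are not stated in the labels, the p-values measure only the spread between these arrays, whose number limits their precision.

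FOXM1, the forkhead factor that drives the late wave of mitotic genes, was lowest in late G1 arrest. Its intensity was 10.9, 5.57 and 4.63 in the late G1 arrays. It was 16.6, 31.0 and 51.9 in early G1, 50.5 and 116 in early S, 46.2, 77.2 and 54.4 in late S, and 81.0, 131 and 83.3 in G2/M. In CDT + DHT it was 106, 70.0 and 58.9, and in CDT it was 69.7, 58.3 and 39.8. All 3 late G1 arrays lay under each of the other 17, early G1 came next, and each of the remaining 5 groups overlapped its neighbour in the order, which ran G2/M, early S, CDT + DHT, late S and CDT downward. On the log2 scale the late G1 mean was 2.93 ± 0.57 (SD, n = 3), against 4.95 ± 0.79 (SD, n = 3) in early G1, and this gap of 2.03 was the only one between neighbours in the order of group means where the arrays were apart and the gap exceeded both SDs.

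FOXM1 fell in late G1, the roscovitine group, against all 3 comparators. Its log2 difference was -3.00 ± 0.42 (SE, 95% interval -3.88 to -2.12) against the mean of the other 4 arrests, with a Benjamini-Hochberg adjusted p of 0.00134 by limma. Against CDT + DHT the difference was -3.34 ± 0.52 (SE, adjusted p = 0.00562 by limma), and against CDT it was -2.87 ± 0.52 (SE, adjusted p = 0.0313 by limma). In this bulk RNA, fewer cells that express the gene and less of its RNA per cell cannot be told apart. Late G1 replicates 2 and 3, at 5.57 and 4.63, lay under the median intensities of their own arrays, 7.30 and 8.13, so the size of the fall rests partly on values not shown to be above background. With a pseudocount of 16, which weighs low values less, the same 3 differences were -1.77, -2.01 and -1.63. The call against CDT was lost with the replicate number as a block (adjusted p = 0.0658) and without the 4 arrays that stood apart (adjusted p = 0.126), while the other 2 held in both. It was also lost when any 1 CDT array, CDT + DHT replicate 2, or late G1 replicate 2 or 3 was left out, with adjusted p up to 0.184. Fitted on the arrays of the compared groups alone, the adjusted p was 0.392 against CDT and 0.107 against CDT + DHT. The call against CDT + DHT was lost without CDT + DHT replicate 1 (adjusted p = 0.0635).

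**Figure D1:**
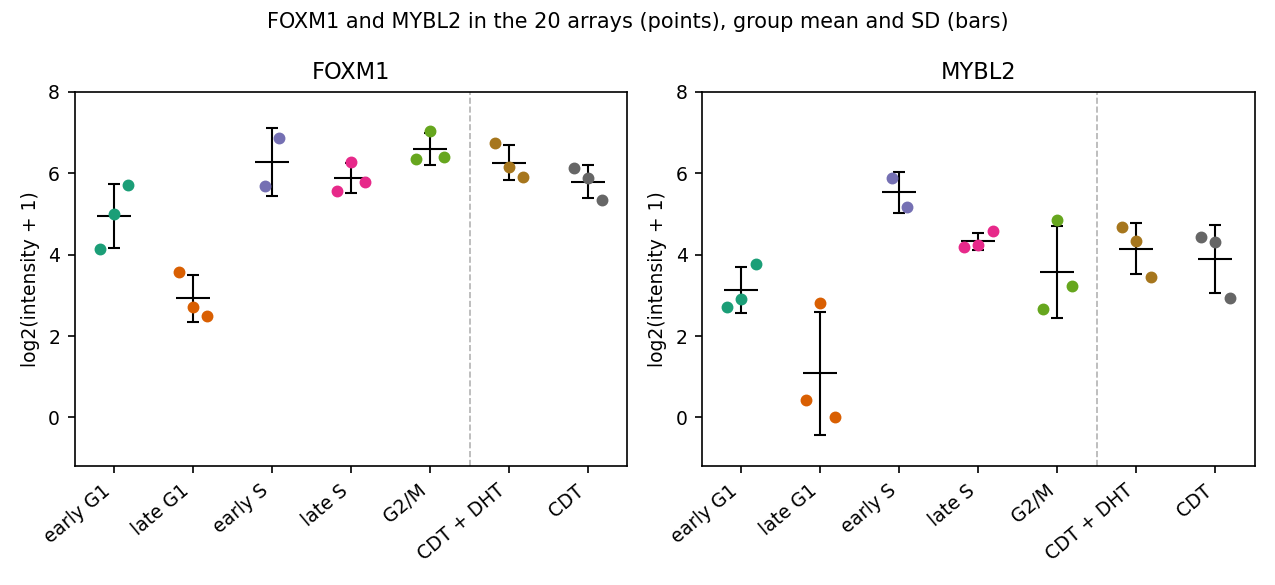
FOXM1 (left) and MYBL2 (right) as log2(intensity + 1) on the vertical axis, by group, with 1 point per array, a horizontal bar for the group mean and vertical bars for the SD (n = 3, and 2 in early S). The late G1 points of FOXM1 lie under all others, at 2.49 to 3.58, while 1 late G1 point of MYBL2, at 2.81, lies level with early G1 and G2/M points.

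MYBL2, which encodes the B-MYB partner of the MuvB core, was likewise lowest in late G1. Its intensity was 0.352, 5.99 and 0.00229 in the late G1 arrays, so 2 of the 3 were close to 0 and the other was not. It was 5.54, 6.53 and 12.6 in early G1, 58.4 and 35.1 in early S, 17.1, 17.9 and 22.8 in late S, and 5.39, 27.8 and 8.32 in G2/M. In CDT + DHT it was 24.6, 19.1 and 9.93, and in CDT it was 20.8, 18.8 and 6.63. Both early S arrays stood above every other array of the series, and the late G1 arrays stood under both CDT groups but overlapped early G1 and G2/M.

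MYBL2 fell in late G1 against the mean of the other 4 arrests, by a log2 difference of -3.06 ± 0.56 (SE, 95% interval -4.24 to -1.88, adjusted p = 0.0117 by limma). Against CDT + DHT its difference was -3.07 ± 0.70 (SE, adjusted p = 0.0546 by limma), and against CDT it was -2.81 ± 0.70 (SE, adjusted p = 0.143 by limma), neither past the threshold of 0.05. The sizes rest on values near 0: with a pseudocount of 16 the differences were -0.96, -0.89 and -0.78, the first still past the threshold (adjusted p = 0.0403). Late G1 replicate 2, the array at 5.99, pulled the other way, and without it MYBL2 passed against CDT (adjusted p = 0.0458) and against CDT + DHT (adjusted p = 0.0210), where it also passed without late S replicate 1 (adjusted p = 0.0487). The call against the other arrests was lost without late G1 replicate 1 (adjusted p = 0.0946) or replicate 3 (adjusted p = 0.130).

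FOXM1 and MYBL2 were thus the 2 of 7 genes called in late G1 against the other arrests, where 0.706% of all genes were called. FOXM1 was the 1 called against CDT + DHT, where 0.516% of all genes were called, and the 1 called against CDT, where 0.103% were. Arrays that did not overlap were less selective: FOXM1, MYBL2 and LIN9 lay wholly under CDT + DHT and wholly under CDT, as did 14% and 10.1% of all genes. FOXM1 alone of the 7 lay wholly under the other arrests, as did 1.28% of all genes. In the moderated F test for any difference among the 5 arrests, FOXM1 passed (adjusted p = 0.0137 by limma), where 0.255% of all genes were called, and MYBL2 did not (adjusted p = 0.0687). The FOXM1 call in that test was lost without late G1 replicate 2 (adjusted p = 0.0739) or 3 (adjusted p = 0.0877), and MYBL2 passed without late G1 replicate 2 (adjusted p = 0.0228). Group means of MYBL2 spanned 4.45 on the log2 scale and those of FOXM1 spanned 3.67, against a median of 1.54 over all genes, and 0.212% and 0.809% of genes spanned more.

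**Figure D2:**
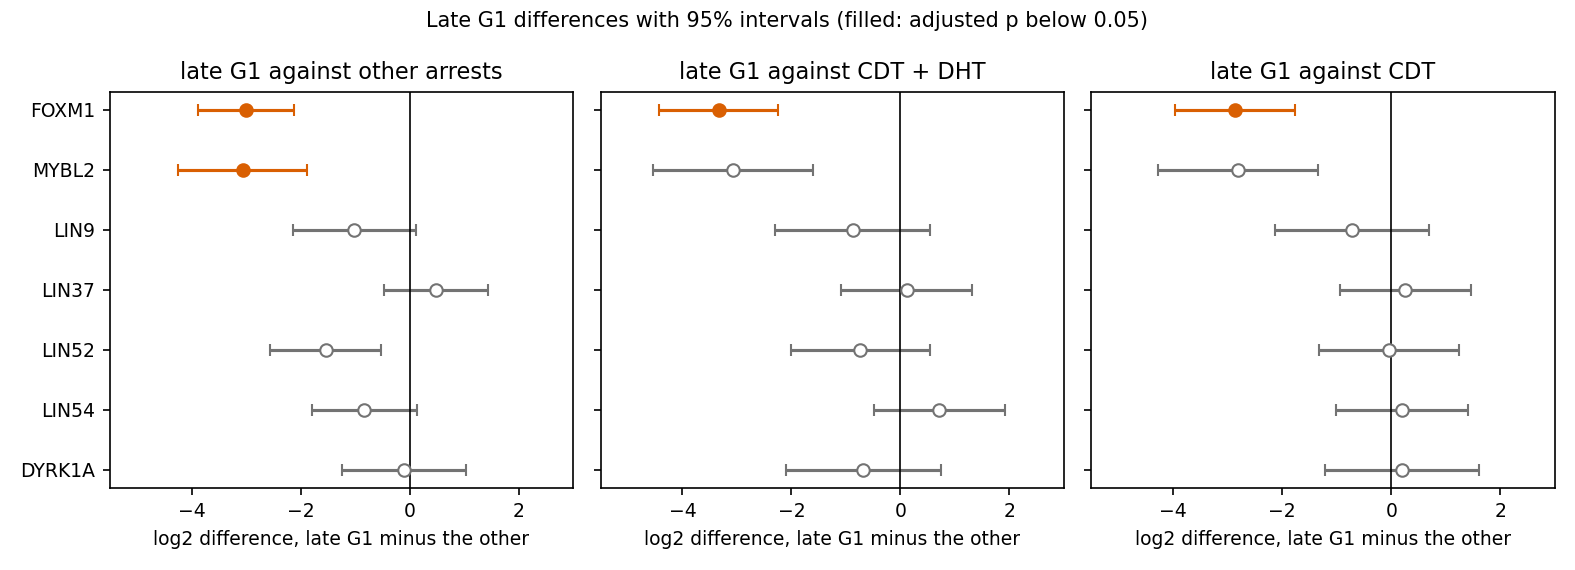
Log2 differences of the 7 genes in late G1 against the other arrests, CDT + DHT and CDT (left to right), with 95% intervals on the horizontal axis and a filled point where the adjusted p was below 0.05. FOXM1 is filled in all 3 panels at -3.00, -3.34 and -2.87, MYBL2 in the left panel only at -3.06, and the other 5 genes in none.

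The high ends of both genes did not pass. FOXM1 was 1.59 ± 0.42 higher on the log2 scale in G2/M than in the other arrests (SE, adjusted p = 0.381 by limma) and 1.19 ± 0.49 higher in early S than in the other arrests (SE, adjusted p = 0.950), and in both its arrays overlapped theirs. The early S difference was 1.78 without early S replicate 1 and 0.60 without early S replicate 2. MYBL2 was 2.50 ± 0.66 higher in early S than in the other arrests (SE, adjusted p = 0.950), with both early S arrays above all of theirs, as were those of 1.07% of all genes. Early S had only 2 arrays, and 0 of 18417 genes were called in that comparison by limma. An unadjusted p below 0.05 was reached there by 2 members and by 3.88% of all genes. In early G1, FOXM1 was at a log2 difference of -1.31 ± 0.52 from CDT + DHT (SE, adjusted p = 0.567), where 0 genes were called. In G2/M, MYBL2 at a log2 mean of 3.58 ± 1.13 (SD, n = 3) was within the spread of CDT at 3.89 ± 0.84 (SD, n = 3).

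The 4 MuvB genes did not pass in any of the 16 comparisons, over which 0.134% of the differences of all genes were called. LIN52, the subunit that DYRK1A phosphorylates, had intensities of 15.7, 12.8 and 11.9 in early G1, 1.71, 0.900 and 5.94 in late G1, 4.14 and 5.40 in early S, 5.18, 10.7 and 8.21 in late S, and 4.72, 15.8 and 15.8 in G2/M. It had 6.73, 7.55 and 1.51 in CDT + DHT, and 1.33, 4.37 and 2.11 in CDT. The early G1 arrays were tight and lay above all arrays of CDT + DHT, as did those of 7.16% of all genes, and of CDT, as did 3.21%. The late S and G2/M arrays also lay above all arrays of CDT, as did the G2/M arrays of 6.64% of all genes. Late G1 overlapped CDT. LIN52 was 2.08 ± 0.61 higher on the log2 scale in early G1 than in CDT (SE, adjusted p = 0.739 by limma) and 1.79 ± 0.61 higher in G2/M than in CDT (SE, adjusted p = 0.511). In late G1 it was at -1.54 ± 0.49 from the other arrests (SE, adjusted p = 0.193). In late S it was 1.37 ± 0.61 higher than in CDT (SE, adjusted p = 0.813), and in early G1 it was 1.39 ± 0.61 higher than in CDT + DHT (SE, adjusted p = 0.572) and 1.11 ± 0.49 higher than in the other arrests (SE, adjusted p = 0.999). These 6 are the differences of LIN52 with an unadjusted p below 0.05, and none is a call. With a pseudocount of 16 they shrank to 0.66, 0.57, -0.43, 0.37, 0.48 and 0.39 in the order given, and without CDT + DHT replicate 3 the difference between early G1 and CDT + DHT was 0.82.

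LIN54, the subunit that reads the cell cycle homology region, had its lowest mean in CDT + DHT. It had intensities of 26.6, 8.30 and 17.1 in early G1, 7.13, 7.80 and 15.5 in late G1, 12.9 and 31.4 in early S, 14.6, 25.9 and 8.07 in late S, and 29.7, 18.2 and 18.8 in G2/M. It had 6.16, 8.90 and 2.75 in CDT + DHT, and 5.61, 8.57 and 11.4 in CDT. The G2/M arrays lay above all arrays of CDT + DHT, as did those of 15.1% of all genes, and of CDT, as did 6.64%. Both early S arrays also lay above all arrays of CDT + DHT and of CDT. CDT + DHT replicate 3, one of the arrays that stood apart, was the lowest of all. LIN54 was 1.82 ± 0.58 higher on the log2 scale in G2/M than in CDT + DHT (SE, adjusted p = 0.157 by limma), where 0.44% of all genes were called. It passed there under array weights (adjusted p = 0.0429) and in no other setting. The difference was 0.80 with a pseudocount of 16 and 1.43 without CDT + DHT replicate 3. LIN54 in CDT + DHT replicates 1 and 3 lay under the median intensities of those arrays, 7.84 and 5.44. Its other differences with an unadjusted p below 0.05 were 1.72 ± 0.65, 1.37 ± 0.58 and 1.28 ± 0.58 (SE) in early S, early G1 and late S against CDT + DHT, and 1.30 ± 0.58 (SE) in G2/M against CDT, with adjusted p between 0.468 and 0.677.

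LIN9, the scaffold of the core, had no difference with an unadjusted p below 0.05. Its intensities were 60.0, 5.13 and 11.2 in early G1, 7.41, 4.95 and 8.96 in late G1, 10.9 and 16.02 in early S, 5.61, 32.8 and 10.51 in late S, and 18.1, 19.3 and 20.2 in G2/M. It had 11.4, 15.2 and 14.4 in CDT + DHT, and 12.9, 11.4 and 11.8 in CDT. The late G1 arrays lay just under both CDT groups and the G2/M arrays just above both. Early G1 held both the highest array and 1 of the lowest. Its differences lay between -1.01, in late G1 against the other arrests, and 0.67, with adjusted p of 0.543 and above by limma.

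LIN37, a subunit needed for repression by DREAM, was the flattest of the 7. Its group means spanned 0.53 on the log2 scale, and 98.9% of all genes spanned more. Late G1 had the highest mean, with intensities of 23.8, 38.2 and 30.5, against 17.1, 27.9 and 25.6 in early G1, 29.1 and 15.1 in early S, 7.98, 37.8 and 28.7 in late S, 15.3, 21.4 and 26.8 in G2/M, 27.3, 31.9 and 24.8 in CDT + DHT and 50.4, 22.4 and 13.8 in CDT. Every pair of neighbours in the order overlapped. The 95% interval of its late G1 difference from the other arrests ran between -0.47 and 1.44, so a change of 1 log2 unit upward is inside it.

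**Figure D3:**
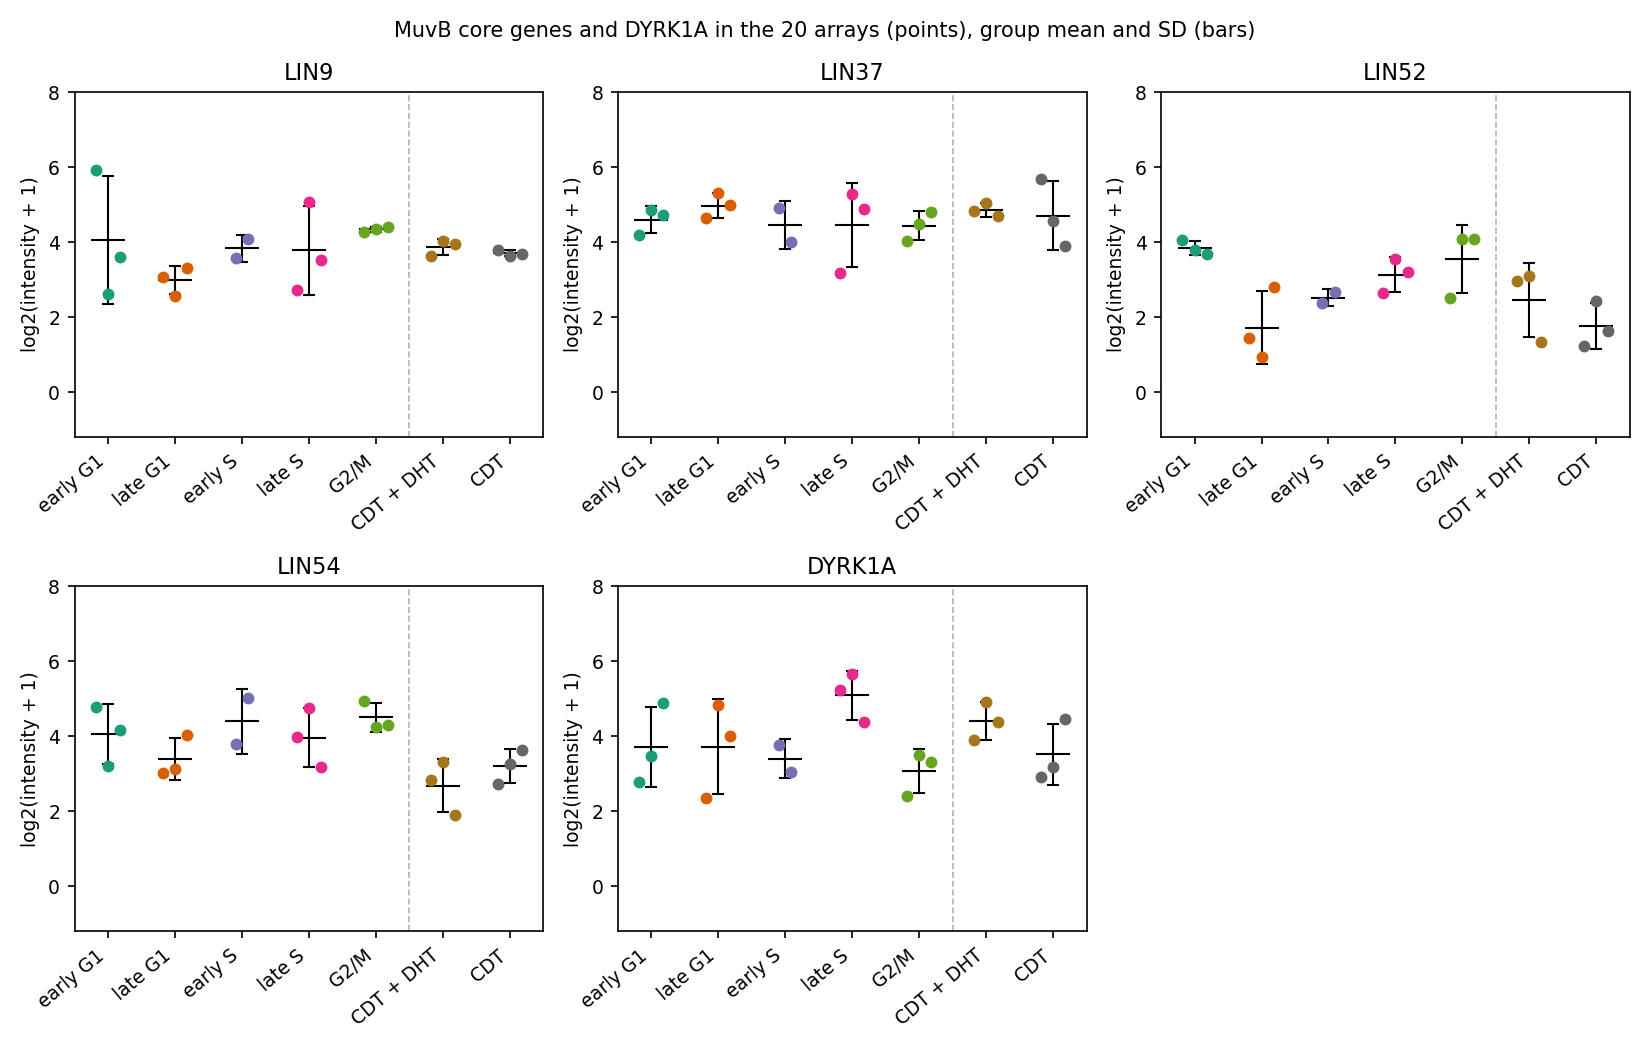
LIN9, LIN37, LIN52, LIN54 and DYRK1A as log2(intensity + 1) on the vertical axis, by group, with 1 point per array, a horizontal bar for the group mean and vertical bars for the SD. LIN37 group means lie between 4.44 and 4.97, LIN52 is highest in early G1 at 3.84, and DYRK1A is highest in late S at 5.09.

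DYRK1A, the kinase upstream of DREAM assembly, had its highest mean in late S. Its intensities were 36.6, 49.6 and 19.9 in late S, against 5.88, 10.1 and 28.6 in early G1, 4.07, 27.3 and 15.0 in late G1, 12.7 and 7.22 in early S, and 4.31, 10.4 and 8.97 in G2/M. It had 14.01, 29.2 and 19.7 in CDT + DHT and 6.52, 8.15 and 20.8 in CDT. Early G1, late G1 and CDT each held arrays several times apart and overlapped every other group. DYRK1A was 1.61 ± 0.54 higher on the log2 scale in late S than in the other arrests (SE, adjusted p = 0.676 by limma) and 1.57 ± 0.68 higher than in CDT (SE, adjusted p = 0.783). The G2/M arrays lay under all 3 CDT + DHT arrays, at -1.32 ± 0.68 (SE, adjusted p = 0.367), as did the arrays of 11.8% of all genes. The early S arrays also lay under all 3, at -0.99 ± 0.76 (SE, adjusted p = 0.806 by limma).

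Among the 112 differences of the 7 genes, 4 were called, 3 of FOXM1 and 1 of MYBL2, while 0.134% of the differences of all genes over the same 16 comparisons were called. An unadjusted p below 0.05 was reached by 19 more of the 112, or 23 with the calls, beside 7.71% of the differences of all genes. The comparisons share arrays and the members were chosen with earlier results of these data known, so these are counts and not independent tests. CDT + DHT against CDT, which differ by 3 h of DHT alone, gave 0 of 7 members called and 0 at an unadjusted p below 0.05, with a lowest adjusted p of 0.815 by limma. In that comparison 0% of all 18417 genes were called, and 6.86% had an unadjusted p below 0.05. FOXM1 there had a log2 difference of 0.47 ± 0.52 (SE, 95% interval -0.63 to 1.57). Early G1, early S, late S and G2/M gave 0 members called against CDT, where 0.00543%, 0.0326%, 0.0977% and 0.109% of all genes were called. Against CDT + DHT they gave 0, where 0%, 0.00543%, 0.0706% and 0.44% of genes were called, and against the other arrests 0, where 0%, 0%, 0.0271% and 0.0271% were.

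Many of the genes that MuvB with B-MYB and FOXM1 is known to bind also fell in late G1. Of 40 G2/M genes, listed with earlier results of these data known, 39 were measured. Set against the other arrests, 20 of them fell in late G1, where 0.706% of all genes were called. There 37 lay below 0, as did 55.3% of all genes, and the median difference was -2.51, against -0.09 over all genes. CDC25B, the phosphatase that activates CDK1, was at -4.47 ± 0.44 (SE, adjusted p = 3.17e-05 by limma). TOP2A, which untangles chromosomes, was at -4.24 ± 0.65 (SE, adjusted p = 0.00271), the mitotic kinesin KIF20A at -3.83 ± 0.59 (SE, adjusted p = 0.00269) and the spindle protein NUSAP1 at -3.77 ± 0.62 (SE, adjusted p = 0.00511). DLGAP5 (-2.89, adjusted p = 0.144) and NEK2 (-2.73, adjusted p = 0.229) did not pass. The late G1 arrays of 17 of the 39 genes lay wholly under the other arrests, beside 1.28% of all genes. The mean log2 level of the list was 2.17 to 2.72 in the late G1 arrays, against 3.51 to 5.15 in early G1, 4.24 to 5.19 in early S, 3.58 to 5.34 in late S and 5.83 to 6.03 in G2/M. Without the 4 arrays that stood apart 31 genes fell, without late G1 replicate 2 it was 11, and without late G1 replicate 3 it was 5.

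Against CDT + DHT, 7 of the 39 fell in late G1, where 0.516% of all genes were called. The median difference was -1.33, against -0.07 over all genes. The 4 largest were PLK1, the kinase that runs mitotic entry and exit, at -4.89 ± 0.55, CDC25B at -4.62 ± 0.55, CDCA3, which helps degrade the mitotic inhibitor WEE1, at -4.21 ± 0.51, and BIRC5, the chromosomal passenger survivin, at -3.64 ± 0.46 (SE, adjusted p between 0.000521 and 0.000782 by limma). Against CDT, where 0.103% of all genes were called, 4 fell. They were PLK1 at -4.03 ± 0.55, CDC25B at -4.71 ± 0.55, CDCA3 at -3.11 ± 0.51 and BIRC5 at -2.89 ± 0.46 (SE, adjusted p between 0.000963 and 0.0121 by limma). The list median against CDT was -1.50, against -0.15 over all genes. Both comparisons share the late G1 arrays. The 7 became 4 when any 1 array of late G1 or CDT + DHT was left out and with the replicate block, and 6 without the 4 arrays that stood apart. The 4 became 2 without CDT replicate 1, CDT replicate 2 or late G1 replicate 3.

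**Figure D4:**
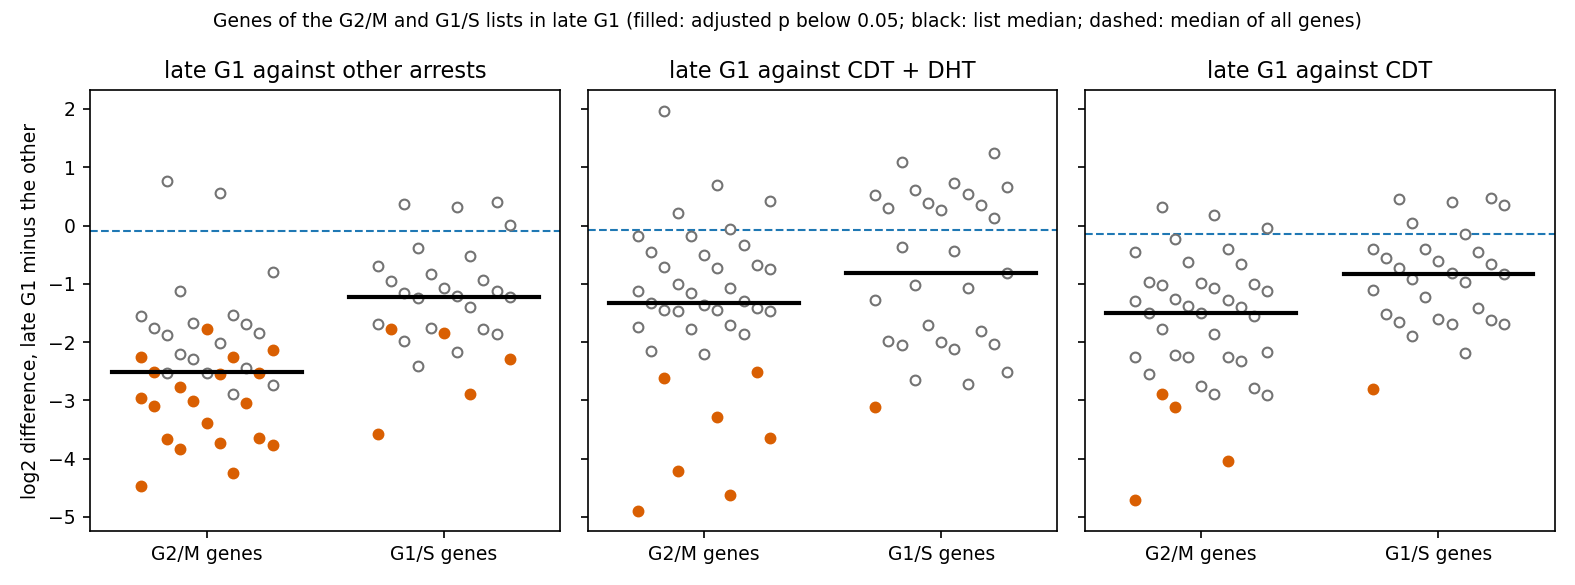
Log2 differences (vertical axis) of 39 G2/M genes and 29 G1/S genes in late G1 against the other arrests, CDT + DHT and CDT (left to right), with 1 point per gene, filled where the adjusted p was below 0.05, a black bar for the list median and a dashed line for the median of all genes. The G2/M list lies at a median of -2.51, -1.33 and -1.50 and the G1/S list at -1.22, -0.82 and -0.83.

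The G1/S genes, which are E2F targets that DREAM represses in early G1 and which serve DNA replication, had smaller median differences in late G1. Of 30 listed, also with earlier results known, 29 were measured. Against the other arrests 5 fell, where 0.706% of all genes were called. The median was -1.22, with 25 below 0, where 55.3% of all genes were below 0. RRM2, the small subunit of ribonucleotide reductase, was at -3.58 ± 0.39 (SE, adjusted p = 0.000111 by limma), the helicase factor CDC45 at -2.88 ± 0.50 (adjusted p = 0.00715), GINS1 at -2.30 ± 0.50 (adjusted p = 0.0335), thymidylate synthase TYMS at -1.84 ± 0.37 (adjusted p = 0.0224) and the helicase subunit MCM2, named after its value was seen, at -1.78 ± 0.38 (adjusted p = 0.0316). Against CDT + DHT the list was split, with 17 of the 29 below 0 and 12 above, where 53.1% of all genes were below 0, and against CDT 24 were below 0, where 57.4% were. RRM2 was the 1 gene of the list that fell against CDT + DHT, at -3.11 ± 0.49 (adjusted p = 0.00562 by limma), where 0.516% of all genes were called. It was also the 1 that fell against CDT, at -2.81 ± 0.49 (adjusted p = 0.0200 by limma), where 0.103% were. Without the 4 arrays that stood apart the counts against the other arrests, CDT + DHT and CDT were 13, 2 and 0. The 5 became 3 without early S replicate 2 or G2/M replicate 2, 9 without late S replicate 1, 2 without late G1 replicate 1 or 2, and 1 without late G1 replicate 3. The call against CDT was lost without any 1 CDT array or late G1 replicate 2 or 3, and that against CDT + DHT without CDT + DHT replicate 1. Against CDT + DHT the count became 4 without late S replicate 1 and 2 without late S replicate 2 or late G1 replicate 1. Whether the 2 lists fell by different amounts was not tested.

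The promoters of the 2 lists held the searched letters in different shares, which were not tested. TTTGAA was in a window of 25 of the 35 G2/M genes in the table (71.4%), against 1 of the 26 G1/S genes (3.85%) and 18.2% of all genes. GGCGGGA was in 11 of the 35 (31.4%), against 17 of the 26 (65.4%) and 17.97% of all genes, and CCAAT was in 31 of the 35 (88.6%), against 17 of the 26 (65.4%) and 39.7% of all genes. Among the members, MYBL2 and LIN52 held GGCGGGA and no TTTGAA in their windows, LIN54 held both in each of its 2 windows, LIN37 and LIN9 held both in 1 window, and DYRK1A held them in different windows.

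In G2/M arrest few of the G2/M genes passed, and neither FOXM1 nor MYBL2 did. Arrays that did not overlap were more common. The G2/M arrays of 30 of the 39 genes lay wholly above CDT + DHT, as did those of 15.1% of all genes. Those of 33 lay wholly above CDT, as did those of 6.64% of all genes, and those of 12 wholly above the other arrests. All 39 G2/M genes lay above 0 against CDT + DHT, where 52.2% of all genes lay below 0. Their median was 1.98, against -0.05 over all genes, and 4 rose, where 0.44% of all genes were called. The 4 were TOP2A at 4.29 ± 0.82, NUSAP1 at 4.25 ± 0.78, TPX2, the activator of Aurora A, at 3.53 ± 0.63, and the kinase AURKA at 3.34 ± 0.63 (SE, adjusted p = 0.0301 each by limma). Against the other arrests all 39 again lay above 0, where 47.3% of all genes lay below 0. Their median was 1.85, against 0.04 over all genes and 1.59 for FOXM1. PLK1 (3.26 ± 0.44, adjusted p = 0.00407 by limma) and AURKA (3.02 ± 0.50, adjusted p = 0.0404 by limma) rose, where 0.0271% of all genes were called. The 4 calls against CDT + DHT were lost with the replicate block and when any 1 array of G2/M or CDT + DHT was left out, became 8 without CDT replicate 1, and were 5 without the 4 arrays that stood apart. The 2 against the other arrests became 3 without those 4 arrays, 1 with the replicate block and 0 without G2/M replicate 2. They became 1 without G2/M replicate 1 or 3, either early S array, late S replicate 3, early G1 replicate 3, CDT replicate 3, CDT + DHT replicate 1, or late G1 replicate 1 or 3. Against CDT, 0 of the 39 were called, where 0.109% of all genes were called. There 38 lay above 0, where 52.8% of all genes lay below 0. Their median was 1.71, against -0.05 over all genes. Of the 39, 25 had an unadjusted p below 0.05, beside 7.05% of all genes. In early G1 arrest 0 of the 39 were called against CDT by limma, where 0.00543% of all genes were called. There 3 had an unadjusted p below 0.05, beside 5.11% of all genes. The list median was 0.30, against -0.04 over all genes. In early G1 against CDT + DHT, 0 were called, as were 0% of all genes, so that count says nothing of the list. There 28 lay above 0 and 11 below, where 51.1% of all genes lay below 0. The list median there was 0.59, against -0.02 over all genes, while FOXM1 was at -1.31 and did not pass.

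The partners and relatives of the 7 genes gave no call in the 16 comparisons, over which 0.134% of the differences of all genes were called. With calls that rare, the lack of a call does not set them apart from other genes. Of the other DREAM subunits (RBL1, RBL2, E2F4, E2F5, TFDP1, TFDP2 and RBBP4) all 7 were measured and 0 were called in the 16 comparisons by limma. Those with an unadjusted p below 0.05 were RBL1, a pocket protein related to RBL2, in G2/M against CDT (1.87 ± 0.86, SE, adjusted p = 0.691), and TFDP2, a DP partner of E2F, in G2/M against CDT + DHT (1.46 ± 0.67, SE, adjusted p = 0.314). Their median in late G1 against the other arrests was -0.14, against -0.09 over all genes. It was farthest from that of all genes in G2/M against CDT + DHT, at 1.14 against -0.05, where 6 of the 7 lay above 0 and the G2/M arrays of 4 lay wholly above, as did those of 15.1% of all genes. MYB, the founding member of the MYB family, was at -1.83 ± 0.48 in CDT + DHT against CDT (SE, adjusted p = 0.696), with its arrays wholly under those of CDT, as were those of 5.95% of all genes. MYBL1, the remaining relative, was at -1.89 ± 0.68 in late G1 against the other arrests (SE, adjusted p = 0.284). None of the relatives DYRK1B, DYRK2, DYRK3 and DYRK4 was called, and DYRK4 had the largest late G1 difference from the other arrests, at 1.13 ± 0.68 (SE, adjusted p = 0.615).

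The genes whose pattern over the 20 arrays was most like FOXM1, among the 9208 others at or above the median level, were BIRC5 (Pearson r = 0.96), CDC25B (0.95), the actin-binding AIF1L (0.94), the ATF family factor ATF5 (0.93) and RRM2 (0.92). After group means were removed the same 5 had r of 0.72, 0.58, 0.83, 0.62 and 0.76, so part of the likeness lay between groups. Most like MYBL2 were NT5DC2 (0.90), TCTA, MCM2 and the DNA ligase LIG1 (0.86 each) and EFS (0.84). Within groups these 5 had r of 0.87, 0.76, 0.62, 0.56 and 0.67 with MYBL2. All r values share arrays, amplification and scaling, and are descriptions with no test.

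FOXM1 and MYBL2 themselves had r = 0.77 over the 20 arrays and 0.33 within groups, and MYBL2 ranked 106th in likeness to FOXM1. The other 20 pairs of the 7 genes had r between -0.39 (LIN37 with LIN54) and 0.56 (LIN52 with LIN54). Most like LIN54 were the helicase ASCC3 (0.90), the bromodomain ATPase ATAD2 (0.89) and FBXO5, the inhibitor of the anaphase-promoting complex (0.88). Within groups these 3 had r of 0.79, 0.77 and 0.78, so the likeness was also there between arrays of the same group. Most like LIN9 were LRR1 (0.82), the condensin subunit SMC4 (0.79) and TMBIM4 (0.78), with r of 0.83, 0.83 and 0.75 within groups. Most like LIN52 were PLPP1, CYP2U1 and TPD52 (0.78, 0.78 and 0.77), with r of 0.42, 0.66 and 0.64 within groups. Most like DYRK1A were the nuclear receptor NR4A3 (0.95), KRTAP4-3 and KCTD9 (0.90 each), and most like LIN37 were MIR326 (0.85), DHRS13 (0.82) and BCL7C (0.81), and the first of each had r of 0.95 (NR4A3) and 0.84 (MIR326) within groups.

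**Figure D5:**
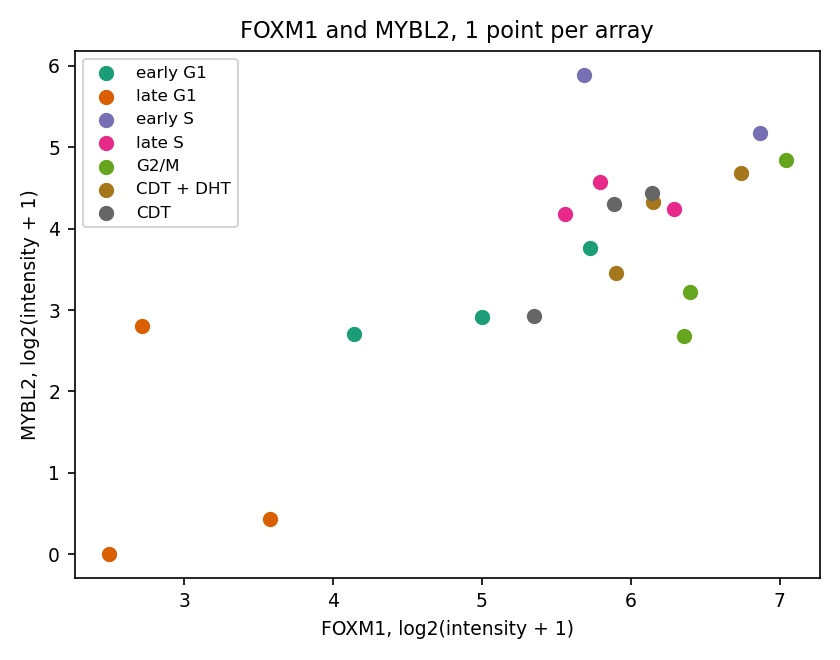
MYBL2 against FOXM1, both as log2(intensity + 1), with 1 point per array in the colour of its group. The 3 late G1 arrays lie at the left, and the early S arrays at the top, each of them above at least 1 G2/M array whose FOXM1 is higher.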

How the data were processed

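RNA of 20 LNCaP samples was measured on Affymetrix human gene arrays. The deposited values are linear probe set intensities; per the submitters' processing notes, the authors used Affymetrix Expression Console 1.1. How probes were summarised, any scaling between arrays and the genome build are not stated in the labels. The scale was settled from the values, of which 0 were at or below 0. Of 33297 features the platform annotation gave 1 symbol to 19460; features with several symbols (1754) or not listed (12083) were left out. The brightest feature per gene by mean log2(intensity + 1) gave 18417 genes. limma 3.58.1 in R 4.3.3 (lmFit, eBayes, 1 coefficient per group, all 20 arrays, two-sided, Benjamini-Hochberg over all genes, threshold 0.05) gave 16 comparisons and an F test among the arrests. The fit was tested on simulated data, which leaves its rate of false calls on these arrays untested. The members, gene lists and rule for naming genes were chosen with earlier results of these data known. All 7 members were named, a difference being printed when its unadjusted p was below 0.05 or it passed, as were up to 4 genes per list and comparison that passed and 2 that did not, and the 3 to 5 genes most like a member by Pearson correlation. Gap beyond spread means arrays that do not overlap and a gap above the larger SD. Replicate numbers were checked for pairing by correlating deviations from group means: the 57 same-number pairs of arrays had a median r of -0.02 and the 114 others -0.03, so they did not pair the samples. Alternatives were other scalings, a pseudocount of 16, gene filters, limma options, the replicate block, fewer groups, and leaving out arrays.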

Additional observations from a re-analysis of the deposited data

How the results depend on the processing

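The 23 named differences of the members were recomputed under 31 other settings, which gave 707 values: 685 kept their side of the threshold, 13 lost it, 9 gained it and 0 changed sign. Of the 23, 19 were not calls, so most of the 685 are differences that stayed uncalled, and all 13 losses fell on the 4 calls. FOXM1 in late G1 against CDT passed in 14 of the 20 settings that left out 1 array and in 8 of the 11 others. FOXM1 in late G1 against the other arrests passed under all 31, with adjusted p between 0.000707 and 0.0249 when single arrays were left out. Against the other arrests 2 members were called under all 11 settings that keep or jointly drop arrays, and 1 to 2 when single arrays were left out. Against CDT + DHT, where 1 member was called, there were 2 with quantile normalization, with arrays centred, with only brighter genes, with eBayes trend and robust, and with arrayWeights, MYBL2 being added each time, and 0 with only the groups compared in the fit (FOXM1 adjusted p = 0.107). Leaving out single arrays gave 0 to 2. Against CDT, where 1 was called, there were 0 with the replicate block, with only the groups compared (FOXM1 adjusted p = 0.392) and without the 4 arrays that stood apart, and 0 to 1 when single arrays were left out. In the F test, where 1 was called, there were 2 with arrays centred, pseudocount 16, only brighter genes, trend and robust, and arrayWeights, 0 with only the arrests in the fit, and 0 to 1 when single arrays were left out. In G2/M against CDT + DHT there was 1, LIN54, with arrayWeights, against 0. Fitting only the groups compared uses fewer arrays; for the other settings the cause was not tested. LIN52 lies under the level filter, so only brighter genes gave it no value.

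Over all genes, the calls in late G1 against the other arrests were 130, and 81 to 406 under other settings and 33 to 230 when single arrays were left out, those against CDT + DHT were 95, and 0 to 1079, those against CDT were 19, and 0 to 82, and the F test gave 47, and 14 to 357. Those in G2/M against CDT + DHT were 81, and 2 to 1669 under other settings and 0 to 230 when single arrays were left out. The G2/M genes that fell in late G1 were 20, and 14 to 31 under other settings, against the other arrests, 7, and 0 to 13, against CDT + DHT, and 4, and 0 to 9, against CDT. The G2/M genes that rose in G2/M were 4, and 0 to 18, against CDT + DHT, and 2, and 1 to 9, against the other arrests. Quantile normalization moved the median of all genes in late G1 against CDT by 0.12 and centring by 0.10, small beside the FOXM1 differences. The replicate numbers did not pair the samples; with the number as a block the members called were 2 against the other arrests (FOXM1 adjusted p = 0.00381, MYBL2 0.0170) and 1 against CDT + DHT (FOXM1 0.0152). Low intensities and 2 or 3 arrays a group limit what can be told of FOXM1 and MYBL2 in late G1, of LIN54 in CDT + DHT and of LIN52.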
